A study of Homo sapiens with 6 samples.

Results

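The genes described here are 59 genes of mitosis, listed by symbol for their known roles. No threshold on these data was used, but the genes were chosen with earlier results of these data known. They cover cyclin B and its kinase CDK1, the Polo-like and Aurora kinases, the spindle checkpoint, the mitotic kinesins, the kinetochore, condensin, spindle assembly and cytokinesis. A probe set with a single platform symbol was found for 58 of them, out of 11963 genes measured in the whole table, and ANLN, which encodes the cytokinesis scaffold anillin, was not analysed here. The RNA came from HK2, an immortalised human line of kidney proximal tubule origin, and was measured on 6 single-colour Affymetrix arrays. At 30% confluence the cells received, by DharmaFECT 4 transfection, either OCRL siRNA or a non-targeting siRNA, and both groups were harvested at 96 h. There were 3 arrays per group, and this small number is what bounds the precision. The labels call the experiments independent and do not say whether arrays with the same number in both groups were prepared together. OCRL is a phosphoinositide 5-phosphatase of endosomes and of the cell surface, mutated in Lowe syndrome. The knockdown is transient and partial, and the labels describe 1 line, 1 OCRL reagent and 1 time point.

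During mitosis CDK1 bound to cyclin B phosphorylates the proteins that condense chromosomes, break down the nuclear envelope and build the spindle. Aurora and Polo-like kinases then act at centrosomes and kinetochores, kinesins move and cross-link microtubules, and the checkpoint proteins hold back the anaphase-promoting complex until every kinetochore is attached. The mRNAs of these proteins accumulate in G2 and mitosis in cycling cells and are low in resting cells. Their genes are held down by the DREAM complex and activated by MuvB with MYBL2 and FOXM1. Both often act through a promoter element called the cell cycle genes homology region, or CHR, and through CCAAT boxes bound by NF-Y. That is the general scheme, and whether it holds in the immortalised HK2 line was not tested. A higher mRNA signal in cultures such as these can reflect, among other things, fewer resting cells, more cells in G2 and mitosis or more mRNA in each such cell. These cannot be told apart in bulk RNA.

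The target of the siRNA is given first because it checks the labels. OCRL was at 9.49, 9.48 and 9.50 (log2 value) on the control arrays and at 7.52, 7.49 and 7.40 on the OCRL siRNA arrays. That was a 4.06-fold fall (adjusted p = 1.24e-05, limma). A second, dimmer OCRL probe set fell by less, 2.01-fold (adjusted p = 7.64e-04, limma), so the depth of the knockdown depends on the probe set. Array medians lay from 7.23 to 7.24 in the control group and from 7.27 to 7.30 in the OCRL siRNA group, a shift of 0.05 on the log2 scale. Among the markers of the line, KRT18 (13.34), CDH2 (12.33), EPCAM (11.43) and PAX8 (11.21) were bright in control cells, whereas PAX2 was at 5.89, and CDH1 (4.62) and ANPEP (4.24) were under the lower quartile of all probe sets throughout. The 8 markers of differentiated proximal tubule function averaged from 3.99 to 6.71, and LRP2 and AQP1 were also under that quartile on each of the 6 arrays. The 6 endothelial and 4 leukocyte markers measured averaged no more than 6.30 in control cells and 0 of them were called. The 6 fibroblast markers averaged from 4.83 to 9.23 in control cells, the brightest being LUM (9.23) and COL1A1 (7.67). Of these LUM was called, lower after OCRL siRNA, and of 10 epithelial markers 1 was called higher and 5 lower. Over all genes 15.5% were called higher and 10.5% lower. The 1 called higher was ANPEP, at its low level. The 5 called lower were KRT8, KRT19, EPCAM, CDH6 and PAX8, with log2 differences from -0.29 (PAX8) to -1.04 (CDH6). The part of these changes in the results on mitotic genes was not tested.

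Mitotic genes were mostly higher in OCRL siRNA cells, by small amounts. At an adjusted p under 0.05, with the adjustment over all probe sets of the table, 30 of the 58 measured genes rose, AURKA and ECT2 fell, and 26 were not called. Over all 11963 genes, 26.0% were called in either direction, 15.5% higher and 10.5% lower. All 3 OCRL siRNA arrays lay above all 3 control arrays for 41 of the 58 genes, against 25.1% of all genes, and below them for 4, against 19.8%. The median log2 difference, OCRL siRNA minus control siRNA, was 0.20 (1.15-fold) over the 58 genes and 0.00 over all genes. Single differences ran from -0.36 for ECT2 to 0.67 for CENPM. The genes that rose did so by 1.12-fold to 1.59-fold with a median of 1.25-fold, and PLK4 and CENPM were the called members that reached 1.5-fold, a size that 2.51% of all genes reached among those called higher.

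**Figure D1:**
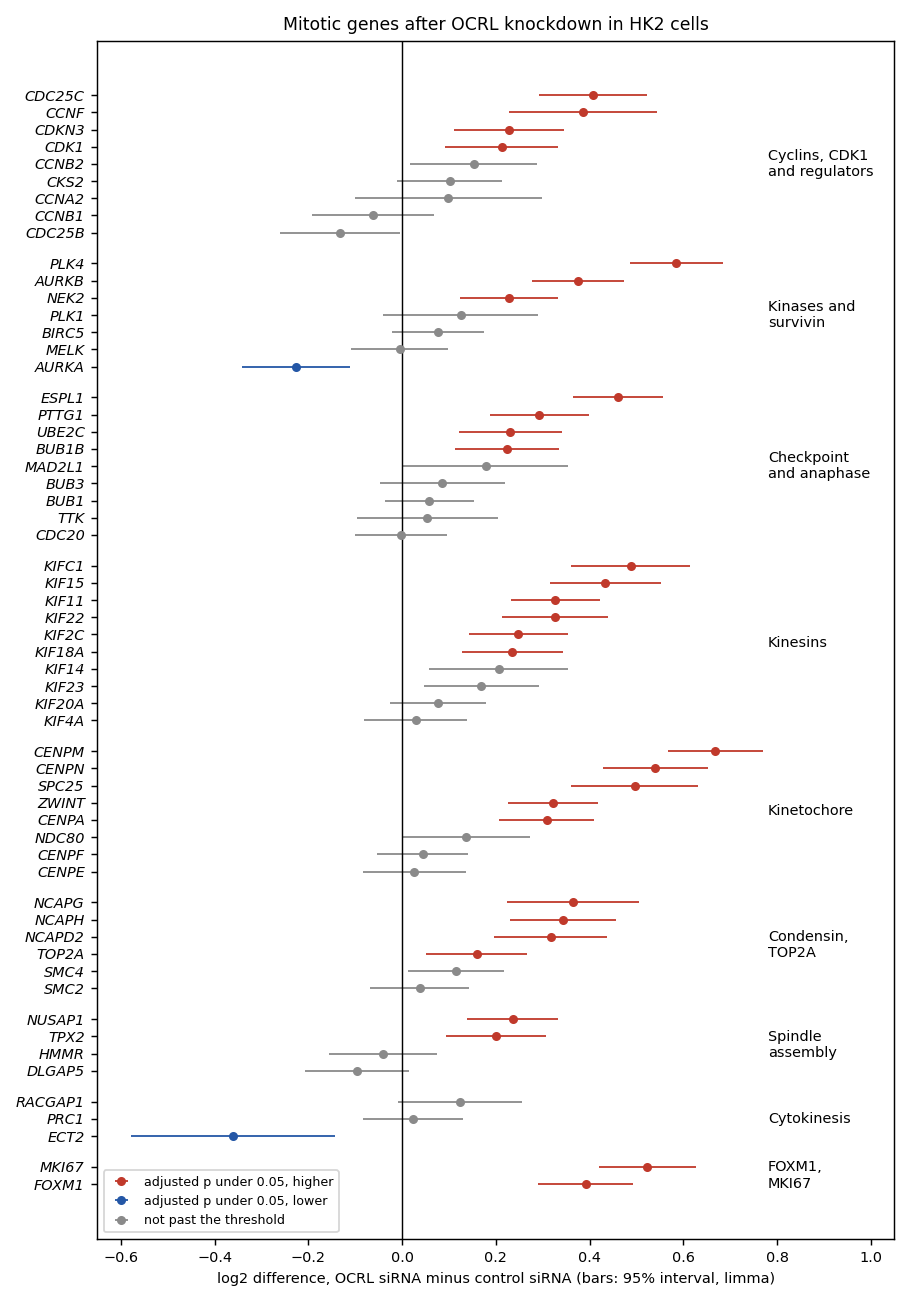
The log2 difference of each of the 58 measured genes (OCRL siRNA minus control siRNA, horizontal axis) is drawn with its 95% interval from limma, grouped by function, and the colour gives the call at an adjusted p under 0.05. Most points lie to the right of 0, from CENPM at 0.67 downward, and the called points to the left of 0 are AURKA and ECT2.

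The arrays themselves moved as a group. The median deviation of the 58 genes from their control means was 0.03, -0.01 and -0.02 on control arrays 1 to 3 and 0.18, 0.18 and 0.21 on the OCRL siRNA arrays, while the medians over all genes on the OCRL siRNA arrays lay between -0.01 and 0.01. The shift of the mitotic genes was thus present on each OCRL siRNA array and larger than the spread between control arrays. Control array 1 stood a little above the other control arrays: it was the highest of the 3 controls for 35 of the 58 genes (60.3%) against 35.1% of all genes. Without that array 36 genes were called higher and 2 lower, with all 32 original calls kept.

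**Figure D2:**
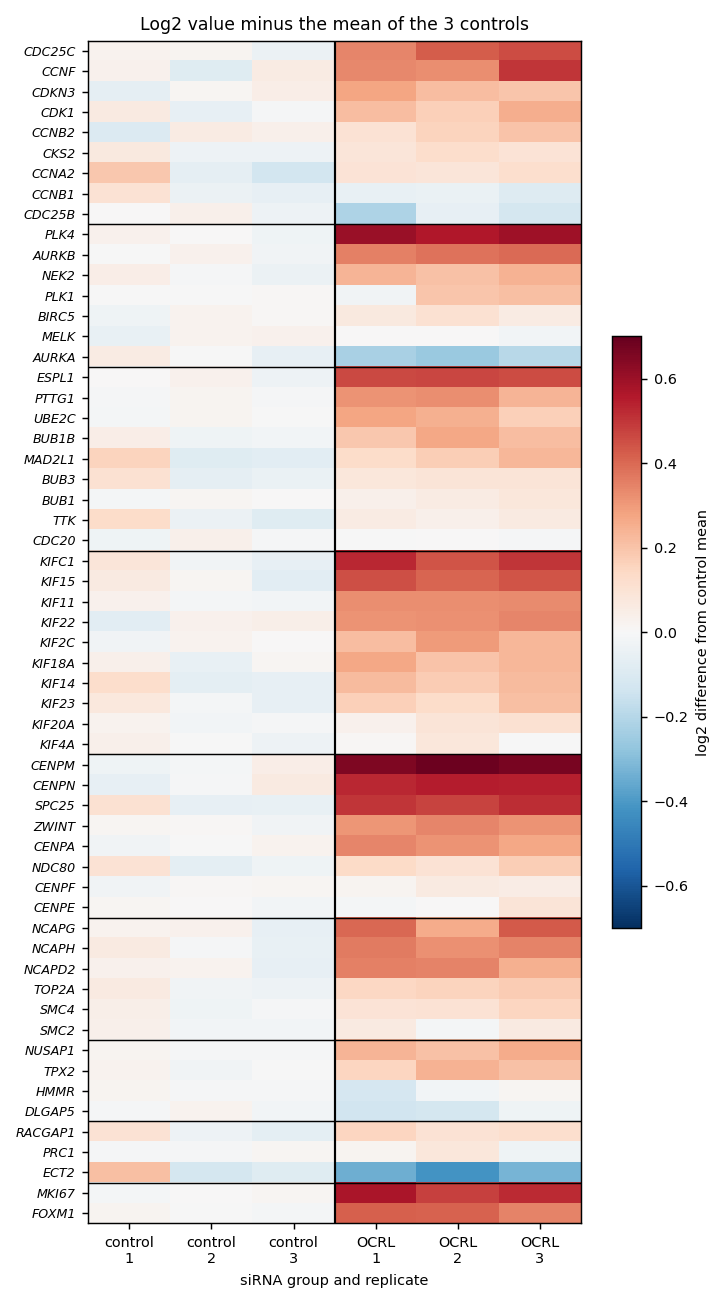
Each cell gives the log2 value of 1 gene on 1 array minus the mean of the 3 control arrays, with 58 genes in rows ordered by function and 6 arrays in columns. The OCRL siRNA columns are mostly above 0, with medians of 0.18, 0.18 and 0.21, and single genes such as ECT2 run the other way.

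Cyclin and CDK1 genes split by member. Of 9 measured, CCNF, CDK1, CDC25C and CDKN3 rose, none fell, and the median difference was 0.15. CDK1, the kinase that drives entry into mitosis, was at 12.76, 12.64 and 12.69 on the control arrays and at 12.91, 12.86 and 12.95 after OCRL siRNA. These groups did not overlap, but the rise was only 1.16-fold (difference 0.21, SE 0.051, adjusted p = 0.0243), and the call was lost in 5 of 17 other settings, with adjusted p from 0.0674 to 0.0895. The dimmer probe sets of CDK1 rose by more, by 0.35 and 0.31, the latter of a class that may also bind near-identical transcripts.

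CDC25C, the phosphatase that activates CDK1 at mitotic entry, was at 8.13, 8.12 and 8.06 in control and 8.45, 8.53 and 8.56 in OCRL siRNA arrays. The groups were well apart, by 1.33-fold (difference 0.41, SE 0.049, adjusted p = 0.00148). A second CDC25C probe set differed by 0.53 (adjusted p = 0.00335). The remaining one, which differed by 0.01, lay below the lower quartile of all probe sets on all 6 arrays, so it bears little on a change. CCNF, the cyclin F subunit of an SCF ubiquitin ligase, was at 8.65, 8.54 and 8.68 against 8.96, 8.95 and 9.12, and rose 1.31-fold from 8.62 ± 0.074 (SD, n = 3) to 9.01 ± 0.099 (adjusted p = 0.00684). CDKN3, a phosphatase that acts on CDKs, was at 11.70, 11.78 and 11.81 against 12.04, 11.98 and 11.96, apart by 1.17-fold (adjusted p = 0.0166). Neither of these genes had overlapping groups, and the CDKN3 call was lost in 2 of 17 other settings (adjusted p = 0.0511 and 0.0565).

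The B-type and A-type cyclins themselves were not called. CCNB1, the main partner of CDK1, was at 12.59, 12.45 and 12.44 in control and 12.44, 12.45 and 12.40 after OCRL siRNA, with a 95% interval of the difference from -0.19 to 0.07. Its groups overlapped, and control array 1 was the highest of the 6. CCNB2 was at 11.66, 11.81 and 11.79 against 11.85, 11.91 and 11.95, with no overlap and an adjusted p of 0.103. CCNA2, which acts with CDK2 and CDK1 from S phase to early mitosis, was at 11.66, 11.41 and 11.34 against 11.57, 11.56 and 11.59, where control array 1 was again the highest. Without that array CCNA2 was called (difference 0.19, adjusted p = 0.0305), and its dimmer probe set rose by 0.34 (adjusted p = 0.00162). CKS2, a CDK-binding subunit, differed by 0.10 (adjusted p = 0.178). CDC25B, the other CDC25 phosphatase listed, was at 10.84, 10.87 and 10.80 against 10.62, 10.78 and 10.71, lower without overlap at an adjusted p of 0.132, and it was called lower in 3 of 17 other settings (adjusted p from 0.0373 to 0.0498).

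**Figure D3:**
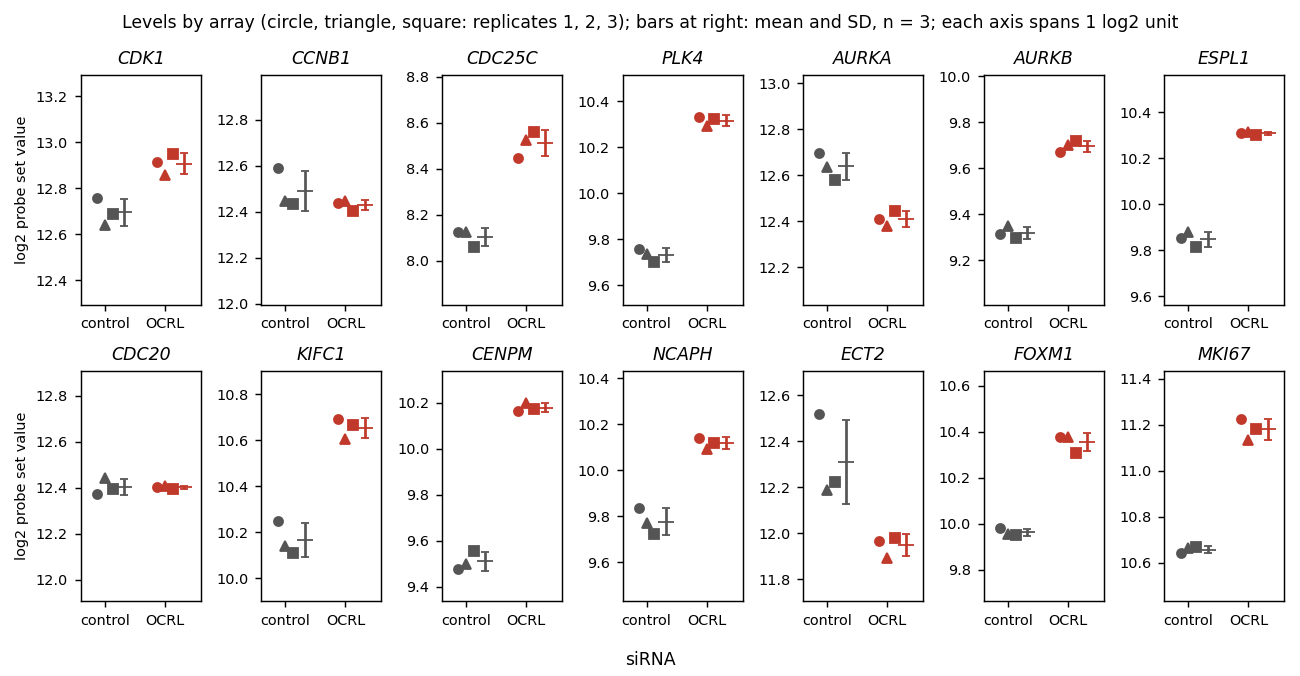
Points give the log2 value on each of the 3 control and 3 OCRL siRNA arrays for 14 genes, with the mean and SD of each group, and each vertical axis spans 1 log2 unit. PLK4, CENPM and MKI67 lie clearly apart between groups, CDC20 and CCNB1 overlap, and AURKA and ECT2 are lower after OCRL siRNA.

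The mitotic kinases moved in both directions. Of 7 genes, the kinases PLK4, AURKB and NEK2 rose, AURKA fell, and PLK1, MELK and the survivin gene BIRC5 were not called. PLK4, which starts centriole duplication, was at 9.76, 9.73 and 9.70 in control and at 10.33, 10.29 and 10.32 after OCRL siRNA. That 1.5-fold rise (difference 0.58, SE 0.042, adjusted p = 1.89e-04) was many times its standard error, and a second PLK4 probe set rose by 0.49 (adjusted p = 0.00531). The dimmest PLK4 probe set was below the lower quartile of all probe sets on the 3 control arrays and on 1 OCRL siRNA array. AURKB, the kinase of the chromosomal passenger complex at centromeres and the midzone, was at 9.32, 9.35 and 9.30 against 9.67, 9.70 and 9.72. The groups lay far apart relative to their SDs of 0.026 and 0.024, and the rise was 1.30-fold (adjusted p = 0.00104). NEK2, which separates the centrosomes at mitotic entry, was at 11.26, 11.20 and 11.17 against 11.45, 11.41 and 11.45, a smaller step of 1.17-fold (adjusted p = 0.0107), again without overlap.

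AURKA, the Aurora kinase of centrosomes and spindle poles, ran against AURKB. It was at 12.70, 12.64 and 12.58 in control and at 12.41, 12.38 and 12.45 after OCRL siRNA, lower on every OCRL siRNA array. The fall was 1.17-fold (difference -0.23, SE 0.048, adjusted p = 0.0158). The call was not stable. The second probe set differed by -0.13 (adjusted p = 0.0606) and the dimmest by -0.02, and the call of the brightest was lost without control array 2 (adjusted p = 0.0514) or without OCRL siRNA array 2 (0.0568). PLK1, the kinase needed for spindle assembly and mitotic exit, was at 6.96, 6.96 and 6.97 against 6.94, 7.16 and 7.17. Its first OCRL siRNA array was as low as the controls, and the interval of the difference ran from -0.04 to 0.29. Without that array PLK1 was called higher (difference 0.20, adjusted p = 0.0358). The only PLK1 probe set was the dimmest of the 58 and lay under the median of all probe sets on every array. MELK differed by 0.00, with an interval from -0.11 to 0.10, and BIRC5, whose protein is the passenger complex subunit survivin, by 0.08 (adjusted p = 0.247).

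Genes of anaphase onset and of the spindle checkpoint rose in part. Of 9 genes, ESPL1, PTTG1, UBE2C and BUB1B rose and none fell, with a median of 0.18. ESPL1, which encodes separase, the protease that cleaves cohesin at anaphase, was at 9.85, 9.88 and 9.82 in control and 10.31, 10.31 and 10.30 after OCRL siRNA. The OCRL siRNA arrays hardly differed among themselves (SD 0.0056), and the rise was 1.38-fold (difference 0.46, SE 0.041, adjusted p = 4.44e-04). PTTG1, the separase inhibitor securin, was at 12.90, 12.93 and 12.90 against 13.22, 13.23 and 13.14, a 1.22-fold rise (adjusted p = 0.00411) by a probe set of the class that may also bind near-identical transcripts. UBE2C, the ubiquitin-conjugating enzyme of the anaphase-promoting complex, was at 12.65, 12.68 and 12.66 against 12.94, 12.91 and 12.83, and rose 1.17-fold (adjusted p = 0.0124). For all of these genes the lowest OCRL siRNA array was above the highest control array.

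Of the checkpoint proteins proper, BUB1B (BUBR1), which inhibits the anaphase-promoting complex, was at 11.10, 11.03 and 11.04 against 11.24, 11.33 and 11.27. It rose 1.17-fold (adjusted p = 0.0143) without overlap, a call lost in 3 of 17 other settings (adjusted p from 0.0511 to 0.0562). BUB1, BUB3, TTK and MAD2L1 were not called, with differences of 0.06, 0.09, 0.05 and 0.18. MAD2L1, the MAD2 protein of the mitotic checkpoint complex, was at 12.41, 12.17 and 12.18 against 12.38, 12.43 and 12.49. Control array 1 alone made its groups overlap, and without it the adjusted p was 0.0178. CDC20, the activator that the checkpoint holds in check, was flat at 12.37, 12.44 and 12.40 against 12.40, 12.41 and 12.40, with an interval from -0.10 to 0.10. A change as large as that of ESPL1 lay outside that interval.

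Among 10 kinesin genes 6 rose and none fell, with a median of 0.24. KIFC1, a minus-end motor that gathers spindle poles, was at 10.25, 10.14 and 10.11 in control and 10.69, 10.61 and 10.66 after OCRL siRNA, a 1.40-fold rise (difference 0.49, SE 0.053, adjusted p = 0.00103). KIF15 and KIF11, plus-end motors that push the spindle poles apart, rose together. KIF15 went from 9.27, 9.22 and 9.14 to 9.66, 9.62 and 9.65 (1.35-fold, adjusted p = 0.00123). KIF11 (Eg5) went from 10.56, 10.52 and 10.51 to 10.85, 10.85 and 10.86 (1.25-fold, adjusted p = 0.00161). The groups did not overlap for either motor.

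The chromosome-arm motor KIF22 was at 8.22, 8.33 and 8.34 in control and 8.61, 8.62 and 8.64 after OCRL siRNA, a 1.25-fold rise (adjusted p = 0.00343), though its second probe set differed by only 0.15 (adjusted p = 0.206). KIF2C (MCAK), which depolymerises microtubules at centromeres, rose 1.19-fold (adjusted p = 0.00802), and KIF18A, which dampens chromosome oscillation, differed by 0.23 (adjusted p = 0.0108). The motors of the central spindle and midbody were less clear. KIF14 and KIF23 differed by 0.21 and 0.17, each at an adjusted p of 0.0563, KIF20A by 0.08 (0.262) and KIF4A by 0.03 (0.716). KIF14 and KIF23 were called in 7 and 6 of the 17 other settings.

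The largest rise among the 58 genes was in the kinetochore. Of 8 measured, CENPM, CENPN, SPC25, ZWINT and CENPA rose, and the median difference was 0.31, against 0.02 for the cytokinesis genes. The difference between function groups was not tested. CENPM, a subunit of the constitutive centromere network, was at 9.48, 9.50 and 9.55 in control and at 10.16, 10.20 and 10.17 after OCRL siRNA. It rose 1.59-fold (difference 0.67, SE 0.043, adjusted p = 1.31e-04), and the gap between the groups was many times the spread within them. CENPN, which reads the CENP-A nucleosome, was at 11.72, 11.77 and 11.84 against 12.31, 12.33 and 12.32, 1.45-fold higher (adjusted p = 4.23e-04). CENPA, the centromeric histone H3 variant itself, rose 1.24-fold (adjusted p = 0.00276). Its only probe set is, like that of PTTG1, of the class that may also bind near-identical transcripts.

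At the outer kinetochore, subunits of 1 complex differed. SPC25, a subunit of the NDC80 complex that binds microtubules, was at 10.08, 9.91 and 9.92 against 10.47, 10.45 and 10.49 (1.41-fold, adjusted p = 0.00126). NDC80 itself differed by 0.14, with an interval from 0.00 to 0.27 and an adjusted p of 0.138, and was called without control array 1 (0.037). ZWINT, which helps recruit the checkpoint and dynein adaptors, was at 12.80, 12.79 and 12.76 against 13.09, 13.12 and 13.10 (1.25-fold, adjusted p = 0.00176). The large corona proteins CENPE and CENPF differed by 0.03 and 0.04, and their intervals, from -0.08 to 0.14 and from -0.05 to 0.14, lay below the rises of the 5 genes that were called.

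Of the 6 condensin and topoisomerase genes 4 rose and none fell, with a median of 0.24. NCAPD2, NCAPG and NCAPH, the regulatory subunits of condensin I, rose by 1.25-fold, 1.29-fold and 1.27-fold (adjusted p = 0.00497, 0.00542 and 0.00274). NCAPH, the kleisin that bridges the ring, was at 9.84, 9.77 and 9.72 in control and 10.14, 10.09 and 10.12 after OCRL siRNA. NCAPD2 was at 10.35, 10.34 and 10.26 against 10.67, 10.66 and 10.56. NCAPG was at 11.64, 11.64 and 11.55 against 12.02, 11.87 and 12.04. The groups did not overlap for any of the 3 subunits. The ATPase core genes SMC2 and SMC4, shared with condensin II, differed by 0.04 and 0.11 (adjusted p = 0.617 and 0.106). All OCRL siRNA arrays were above all control arrays for SMC4, it was called higher in 5 of 17 other settings, and 1 of its dimmer probe sets rose by 0.54 (adjusted p = 0.00262). That dimmer SMC4 probe set is of the class that may also bind near-identical transcripts. Whether the condensin subunits differ from each other was not tested. TOP2A, the topoisomerase that untangles sister chromatids, was at 13.03, 12.95 and 12.94 against 13.12, 13.13 and 13.15. Its 1.12-fold rise (adjusted p = 0.0461) was the smallest called and was lost in 9 of 17 other settings.

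Among spindle assembly genes TPX2, the activator of Aurora A, was at 11.15, 11.11 and 11.13 in control and 11.28, 11.38 and 11.34 after OCRL siRNA, a 1.15-fold rise (adjusted p = 0.0189). NUSAP1, which bundles microtubules near chromatin, was at 12.04, 12.01 and 12.01 against 12.26, 12.22 and 12.28, a 1.18-fold rise (adjusted p = 0.00679). Groups were apart for both, by small steps. The TPX2 call was lost in 5 of 17 settings, with adjusted p from 0.0537 to 0.0686. HMMR and DLGAP5, microtubule-associated spindle proteins, differed by -0.04 and -0.10. DLGAP5 (HURP) was at 11.70, 11.73 and 11.69 against 11.57, 11.58 and 11.67, lower on each OCRL siRNA array at an adjusted p of 0.196.

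Of the 3 cytokinesis genes measured, ECT2 was called, lower after OCRL siRNA. ECT2, the exchange factor that activates RhoA at the cleavage furrow, was at 12.52, 12.19 and 12.22 in control and at 11.97, 11.89 and 11.98 after OCRL siRNA. All OCRL siRNA arrays were lower, and control array 1 stood well above the other controls. The fall was by 0.36 on the log2 scale (SE 0.092, adjusted p = 0.0305), and it was -0.26 without control array 1 (adjusted p = 0.0172). Leaving out any 1 of the 3 OCRL siRNA arrays ended the call, with adjusted p from 0.0727 to 0.0921. RACGAP1 and PRC1, which build the central spindle that recruits ECT2, differed by 0.12 (adjusted p = 0.168) and 0.02 (0.77). For RACGAP1 all OCRL siRNA arrays were above all control arrays, and it was called higher in 3 of 17 other settings, among them without control array 1 (adjusted p = 0.0369).

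Both genes of the transcription and proliferation pair rose. FOXM1, the forkhead factor that activates G2 and mitosis genes, was at 9.98, 9.96 and 9.95 against 10.38, 10.38 and 10.31, a 1.31-fold rise (difference 0.39, SE 0.043, adjusted p = 9.86e-04). MKI67, which encodes the Ki-67 coat protein of mitotic chromosomes, was at 10.64, 10.66 and 10.67 against 11.23, 11.13 and 11.18, a 1.44-fold rise (difference 0.52, SE 0.044, adjusted p = 3.69e-04). The groups of both were far apart. The only FOXM1 probe set is of the class that may also bind near-identical transcripts. Of the other MKI67 probe sets, 1 rose by 0.35 and the remaining 2 differed by 0.08 and 0.09 and were not called.

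The 26 uncalled genes were not shown to be unchanged. Their 95% intervals together ran from -0.26 to 0.35, and 20 of them had a difference above 0, against 5992 of all 11963 genes. For 11 the OCRL siRNA arrays were all above the control arrays, and for 2, CDC25B and DLGAP5, all below. Over all genes, called or not, these shares were 25.1% and 19.8%. For 24 of the 26 the interval ended below the median rise of the called genes (0.33, or 1.25-fold), and for KIF14 and MAD2L1 it reached past it. A gene with a large difference for its SE is called, so the call rule itself favours this count. It is therefore not separate evidence of a smaller change.

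The genes with dimmer probe sets showed the larger differences. Over the 58 genes the mean log2 value and the difference correlated at Pearson's r = -0.39 and Spearman's rho = -0.44, against 0.06 and 0.10 over all 11963 genes. These are descriptions across genes, which share the same 6 arrays and are not independent replicates, and the brightness of a probe set depends on its probes as well as on its mRNA. Genes at least as bright as the dimmest of the 58 were also called a little more often in general. Of these 7198 genes, 22.6% were called higher and 14.4% lower, with a median of 0.02. Of the 2666 genes at or above the lower quartile of the 58, 20.9% were called higher, with a median of 0.008. Of the 29 dimmer genes 18 rose and none fell, with a median of 0.32. Of the 29 brighter genes 12 rose and 2 fell, with a median of 0.12. Within a gene the picture was weaker: among 22 genes with a second measurable probe set, the second, dimmer one had the larger absolute difference in 13.

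**Figure D4:**
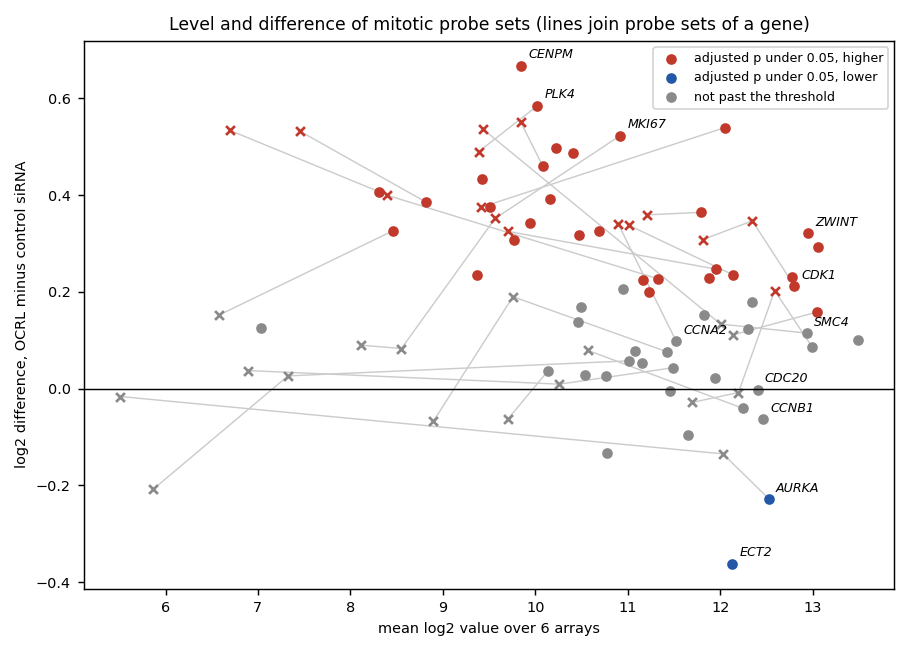
The mean log2 value over the 6 arrays (horizontal axis) is set against the log2 difference, OCRL siRNA minus control siRNA. Circles are the probe sets that represent the 58 genes, crosses are their other probe sets in which every array lay above the lower quartile of all probe sets, and lines join probe sets of 1 gene. The circles fall from left to right (Pearson's r = -0.39).

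Other probe sets of the same genes mostly gave the same direction. The 58 genes had 94 probe sets, of which 46 were called higher and 2 lower, against 13.2% of all probe sets called higher. These totals include the 58 probe sets that represent the genes, with their 30 higher and 2 lower calls. Of the 22 genes with a second measurable probe set, the 2 brightest agreed in sign for 20. Of 13 such genes whose brightest probe set was called higher, 11 were called higher by the second as well, the exceptions being KIF22 and TOP2A, and BUB3 and CCNA2 were called by the second alone. No gene was called in both directions.

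The promoters of these genes share sequence elements that the choice of genes did not use. RefSeq promoter sequences (GRCh38.p14, from 250 bases before to 50 after the gene start) were at hand for 50 of the 59 genes, and were searched on both strands for TTTGAA or TTCGAA (CHR), for CCAAT, and for the E2F letters TTTGGCGC, TTTCGCGC or TTCGCGCC. A CHR match lay in 38 of the 50 promoters (76%), against 12.4% of the 9563 measured genes with a promoter and 16.6% of all 27305 promoters. A CCAAT match lay in 37 (74%), against 37.3% of the measured genes and 35.7% of all promoters, and 30 promoters (60%) held both, against 5.25% of the measured genes. The E2F letters were in 4 promoters (8%), those of CDK1, NUSAP1, ZWINT and KIF15, against 2.84% of the measured genes and 1.9% of all promoters.

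The matches were also alike in place. In the 25 bases from -50 to -26 before the start, 26% of the 50 promoters held a CHR match against 1.11% of the measured genes. CCAAT gathered further upstream, from -75 to -51, in 48% against 10.1%. CDC25B, CDC25C, MELK, KIF2C and CENPE had neither match in this window, which says only that these letters are not there.

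**Figure D5:**
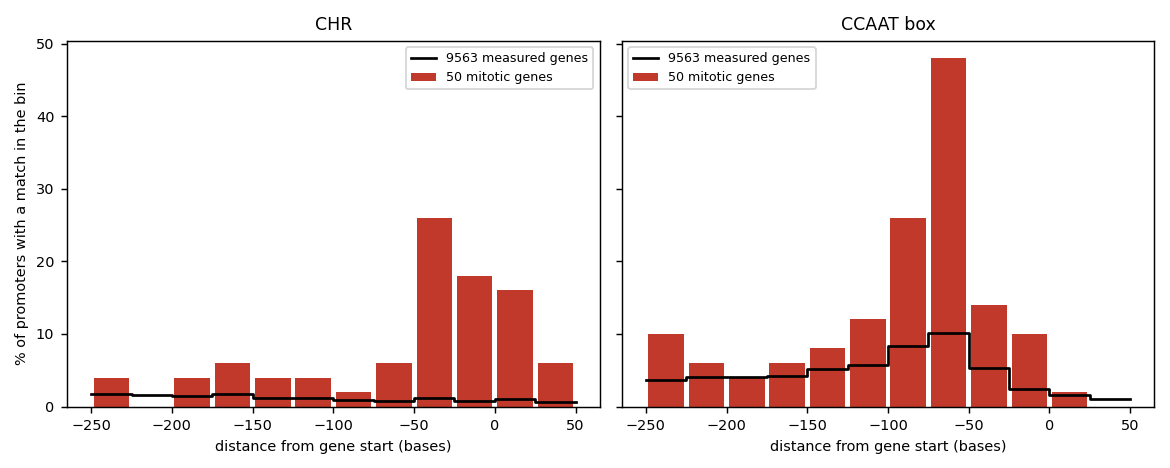
Bars give the percent of the 50 promoters of the mitotic genes, and the line the percent of the 9563 measured genes, that hold a CHR or a CCAAT match in each 25-base bin of distance from the gene start. CHR matches peak at 26% from -50 to -26 and CCAAT matches at 48% from -75 to -51.

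The shares with a CHR or a CCAAT box were close between genes that rose and genes that were not called, and the few E2F matches were all in genes that rose. A CHR match was present in 20 of 26 promoters of genes that rose (76.9%) and in 16 of 22 of uncalled genes (72.7%), and CCAAT gave the same 20 of 26 and 16 of 22. The E2F letters were in 4 of 26 (15.4%) and 0 of 22, and no difference between these shares was tested. The following promoters, from genes of each outcome, are shown for this reason as the 130 bases before the gene start, 5′ to 3′ on the gene's strand, with CHR, CCAAT and E2F letters of either strand in capitals. MKI67 (chr10:128126424-128126553, minus strand), ESPL1 (chr12:53268169-53268298, plus strand) and KIF15 (chr3:44761664-44761793, plus strand) rose.
MKI67: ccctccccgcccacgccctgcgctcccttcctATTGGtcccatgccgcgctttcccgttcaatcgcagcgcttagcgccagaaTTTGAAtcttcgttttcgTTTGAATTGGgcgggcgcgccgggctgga
ESPL1: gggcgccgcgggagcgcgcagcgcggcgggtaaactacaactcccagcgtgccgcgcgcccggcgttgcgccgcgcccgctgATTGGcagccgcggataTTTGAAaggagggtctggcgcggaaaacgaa
KIF15: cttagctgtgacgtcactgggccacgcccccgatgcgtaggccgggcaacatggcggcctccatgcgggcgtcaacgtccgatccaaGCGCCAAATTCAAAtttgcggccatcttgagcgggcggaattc
MKI67 carries CHR letters in 2 places, the second sharing a base with a CCAAT box on the other strand. ESPL1 has an ATTGG, the other-strand form of CCAAT, a short way before TTTGAA. In KIF15 the E2F letters GCGCCAAA, read on the other strand, run straight into a CHR, TTCAAA.

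The next promoters belong to genes that were not called, CDC20 (chr1:43358851-43358980, plus strand), PLK1 (chr16:23678759-23678888, plus strand), CCNB2 (chr15:59105016-59105145, plus strand) and CCNB1 (chr5:69167020-69167149, plus strand), and to ECT2 (chr3:172750596-172750725, plus strand), which fell.
CDC20: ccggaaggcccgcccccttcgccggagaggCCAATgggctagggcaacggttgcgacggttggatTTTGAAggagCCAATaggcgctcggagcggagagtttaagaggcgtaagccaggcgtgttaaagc
PLK1: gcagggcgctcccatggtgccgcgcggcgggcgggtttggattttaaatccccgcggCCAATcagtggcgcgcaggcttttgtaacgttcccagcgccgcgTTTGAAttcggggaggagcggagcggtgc
CCNB2: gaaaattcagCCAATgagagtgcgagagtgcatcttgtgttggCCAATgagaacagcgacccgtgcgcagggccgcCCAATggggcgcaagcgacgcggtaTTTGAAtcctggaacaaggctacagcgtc
CCNB1: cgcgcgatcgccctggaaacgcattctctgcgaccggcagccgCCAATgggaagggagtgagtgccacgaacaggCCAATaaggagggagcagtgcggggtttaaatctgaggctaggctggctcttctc
ECT2: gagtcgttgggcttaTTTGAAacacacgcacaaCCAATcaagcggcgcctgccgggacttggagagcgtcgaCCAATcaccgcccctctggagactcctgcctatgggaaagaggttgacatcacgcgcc
CDC20, PLK1 and CCNB2 also hold a CCAAT box before TTTGAA, but in the forward direction and further from it than in ESPL1. The 2 begin at -100 and -65 in CDC20, -73 and -29 in PLK1, -54 and -29 in CCNB2, and -48 and -31 in ESPL1. Among promoters not printed, direction and distance did not follow the outcome. KIF18A, which rose, has a forward CCAAT at -45 and TTTGAA at -10. The uncalled KIF23 has ATTGG at -64 and TTTGAA at -55. CDC20 has another CCAAT box after its TTTGAA, and its mRNA was flat at 12.40 in both groups. CCNB1 has CCAAT boxes and no CHR in these letters. In the printed bases of ECT2 the TTTGAA comes before the CCAAT boxes, and a second TTTGAA begins at 35 bases after the start, outside them. A match in these letters is a description of the sequence and not a measured binding site.

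Other genes of mitosis, taken from a list of 129 that shares no gene with the 59, were also described. Like the 59, they were chosen with earlier results of these data known. Of 96 measured, 35 rose, 4 fell and 57 were not called, and the median was 0.12. These counts and those of the subgroups stand beside 15.5% higher and 10.5% lower over all genes. Outside the listed members, kinetochore genes again rose in number: 11 of 24 rose and none fell, led by CENPU (11.63 ± 0.063 to 12.32 ± 0.048, 1.61-fold, adjusted p = 2.37e-04) and HJURP, the chaperone that loads CENP-A (1.52-fold, adjusted p = 2.70e-04). Of 24 spindle and centrosome genes 10 rose and none fell, among them the microtubule destabiliser STMN1 (difference 0.44, adjusted p = 0.00146) and the kinesin KIF18B (0.42, 0.00187). Condensin II gave NCAPG2 (0.24, adjusted p = 0.00822) of 3 genes, and the chromosomal passenger and related genes gave CDCA3 (0.19, 0.0136) of 3.

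Genes that control entry into mitosis held the largest rise and the largest fall of these 96. Of 11, 4 rose and 2 fell. BORA, which lets Aurora A activate PLK1, was at 9.17, 9.19 and 9.21 in control and at 9.95, 9.93 and 9.99 after OCRL siRNA (1.71-fold, adjusted p = 7.51e-05). ARPP19, which inhibits the phosphatase PP2A-B55 once phosphorylated by the Greatwall kinase, ran the other way, at 11.76, 11.77 and 11.76 against 11.03, 10.97 and 11.00 (1.70-fold lower, adjusted p = 7.51e-05). ENSA, the related Greatwall substrate, rose by 0.21 (adjusted p = 0.0127). CDC25A rose by 0.55 (adjusted p = 5.04e-04), CKS1B, a CDK-binding subunit, by 0.20 (0.0171), and CCNH, the cyclin of the CDK-activating kinase, fell by 0.37 (adjusted p = 0.00533). Groups overlapped for none of these 6 genes. The 4 falls among the 96 genes, in ARPP19, CCNH, SMC1A and E2F4, are those of the brightest probe set. With the second brightest probe set, where a gene had several, 1 of the 96 genes was called lower.

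Of 11 genes of the anaphase-promoting complex and its regulators 3 rose, ANAPC15 (0.29, adjusted p = 0.0069), its inhibitor FBXO5 or EMI1 (0.36, 0.0226) and ANAPC13 (0.14, 0.0467). Of 9 cohesin genes, SMC3 and the release factor WAPL rose by 0.23 and 0.22 (adjusted p = 0.0147 and 0.0133) and SMC1A fell by 0.27 (0.0163), shares close to those over all genes. Of 11 genes of MuvB and its regulators, MYBL2 (B-MYB) rose by 0.35 (adjusted p = 0.00399), the E2F partner TFDP1 by 0.43 (9.14e-04) and the kinase DYRK1A by 0.15 (0.0371), whereas E2F4, the repressor subunit of DREAM, fell by 0.20 (0.0316). The replicative helicase genes (MCM, CDC45 and GINS), which belong to S phase, were called higher in 9 of 12 (75%) with a median of 0.30. For the 58 mitotic genes these values were 51.7% and 0.20, and over all genes 15.5% and 0.00. A rise was thus not particular to the mitotic genes, and the difference between the lists was not tested.

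The deposited values leave a shift of 0.05 between the array medians of the groups, and the calls shift with it. After each array was centred on the common median, the median over all genes became -0.05, and 12.0% of all genes were called higher with 26.8% called in all. Centring moves every difference down by that shift, so the median of the 58 mitotic genes became 0.16. Among these genes CDK1 (adjusted p = 0.0674) and TOP2A (0.139) were no longer called, and CDC25B was called lower (difference -0.18, adjusted p = 0.0498).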

How the data were processed

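The authors deposited log2 intensities per probe set, normalised across arrays, using RMA from the affy package, names that the submitters' processing notes give without a version. RMA brings arrays to a common distribution, which can remove a change shared by most genes. After 62 control probe sets were left out, 22215 were tested with limma 3.58.1 in R 4.3.3 by lmFit and eBayes. The model had a group term and no covariate, tests were two-sided, and p-values were adjusted by Benjamini-Hochberg over all tested probe sets with 0.05 as threshold. Genes were named from the platform annotation where it gave 1 symbol (19064 probe sets), and the probe set that was brightest on average over the 6 arrays stood for each gene. Errors are SDs over 3 arrays, SE is limma's moderated standard error, and intervals cover 95%. The members and the gene lists were chosen with earlier results of these data known. All members were described, and of the other mitotic genes up to 2 called per group and direction with the smallest p were named, and all where 5 or fewer were called. ANAPC13, DYRK1A, ENSA and CKS1B were added to the named genes on sight of their values. Simulated data were used to test the fit. Promoters came from RefSeq (GRCh38.p14), and 9 members without an entry were not searched. Alternatives were each array left out, 2 scalings, array weights, robust trended eBayes, low values left out, other probe set choices, a 1.5-fold minimum and the replicate number as a block. Plots used matplotlib 3.10.9 under Python 3.11.15.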

Additional observations from a re-analysis of the deposited data

How the results depend on the processing

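Of the 32 called mitotic genes, 23 were called in each of 17 other settings, 9 lost the call in at least 1, 12 uncalled genes gained one in at least 1, and no called gene reversed. Leaving out each array gave 26 to 36 members higher and 0 to 2 lower. The lower count was 1 without control array 2, 1 without OCRL siRNA array 1 or 3, and 0 without OCRL siRNA array 2. Fewer were also lower with the mean of probe sets (1), without the _s_at and _x_at types of probe set (1), and with the second brightest probe set (1), a setting added after seeing the data. A 1.5-fold minimum left 2 members higher and 0 lower. The members' median was 0.18 to 0.22 with an array left out, 0.16 after median centring, 0.22 with the mean of probe sets and 0.23 with the most variable probe set. The other mitotic genes gave 21 to 37 higher and 2 to 4 lower with an array left out (higher 23 without control array 2, 22 without control array 3 and 21 without OCRL siRNA array 3, lower 2 without OCRL siRNA array 3). They gave 9 lower after median centring, 8 with trend and robust settings, 9 without probe sets below the lower quartile, 8 without those below the median and 1 with the second brightest probe set, and 3 higher and 1 lower with a 1.5-fold minimum. The cause of these shifts was not tested. Same-numbered arrays did not deviate together throughout (r 0.14, 0.12 and -0.01), so the numbers were not taken as pairs. With the replicate block, 27 members were higher and 2 lower, with CDKN3, TOP2A and TPX2 no longer called, and 30 and 4 of the other mitotic genes were called. CDC25B was called lower after median centring, with trend and robust settings and without probe sets below the median (adjusted p from 0.0373 to 0.0498). OCRL was lower in every setting.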
